A study of Caenorhabditis elegans with 96 samples.

Results

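Yolk transcripts were used to order 85 recombinant inbred advanced intercross lines of the nematode Caenorhabditis elegans, and the lines with the most and the least were compared across the other genes. The lines were chosen by the measured level of the 6 vitellogenin genes, vit-1 to vit-6, summed as CPM, the counts scaled to one common total of gene counts per library. The 20 highest of the 85 lines were taken as high-yolk lines and the 20 lowest as low-yolk lines, which left 45 middle lines. The lines come from a cross between the standard laboratory strain N2 and the Hawaiian wild strain CB4856, and the genome of each inbred line mixes segments of both parents. All 96 libraries carry the treatment label Cntrl and share one growth protocol. Eggs were freed with hypochlorite, hatched larvae were held overnight without food, and about 2000 of them were placed on Escherichia coli HT115. Animals labelled L4, the last larval stage, were collected 50 h later. Each line had 1 library made from 1 such pooled culture, CB4856 had 7 libraries and N2 had 4, and the sample titles place all of them in 7 batches.

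Vitellogenins are large lipoproteins that carry fat and amino acids to the embryo. In C. elegans hermaphrodites the intestine starts to make them as the animal passes from the L4 stage to adulthood, secretes them into the body cavity, and growing oocytes take them up through the receptor RME-2. Over the same hours the hypodermis moults to the adult cuticle, and the gonad ends sperm production and turns to oocytes. Yolk transcripts in an L4 culture are therefore often read together with genes of the cuticle, the sperm and the oocytes.

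The yolk level, the value that chose the lines, ran from 1.72% of gene counts in QX562 to 7.38% in QX528. High-yolk lines held between 4.78% and 7.38% (median 5.17%, n = 20), middle lines between 3.12% and 4.76% (median 3.75%, n = 45) and low-yolk lines between 1.72% and 3.10% (median 2.42%, n = 20). The order had no gap at either limit. QX548, the last high-yolk line, was at 4.78% and QX508, the next one down, at 4.76%, while QX532, the last middle line, was at 3.12% and QX557, the first low-yolk line, at 3.10%. Cultures of a single genotype also spread widely, since the 7 CB4856 libraries lay at 6.39%, 2.28%, 4.42%, 3.92%, 4.67%, 2.57% and 4.90% in batches 2, 3, 4, 6, 7, 8 and 9. The 4 N2 libraries lay closer together, between 2.96% and 3.48%, all inside the range of the lines.

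Batch and yolk level went together. All 7 lines of batch 2 were high-yolk lines, with a median of 6.65%, and batch 8 held 10 low-yolk lines and 0 high-yolk lines, with a median of 2.86% over its 19 lines. Only batches 3, 4, 6, 7 and 9 held both extremes, 13 high-yolk and 10 low-yolk lines in all. A comparison that adjusts for batch therefore rests on those 23 lines, and the lines of batches 2 and 8 add only to the estimate of the spread. Each line was grown in 1 batch, so among the lines of batch 2 or batch 8 batch and genotype cannot be told apart for the yolk level. The parents were grown in several batches. CB4856 was at 6.39% in batch 2, its highest value, and at 2.57% in batch 8, where N2 was at 2.96%, its lowest. The part of batch in the yolk level of the lines was not tested.

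**Figure D1:**
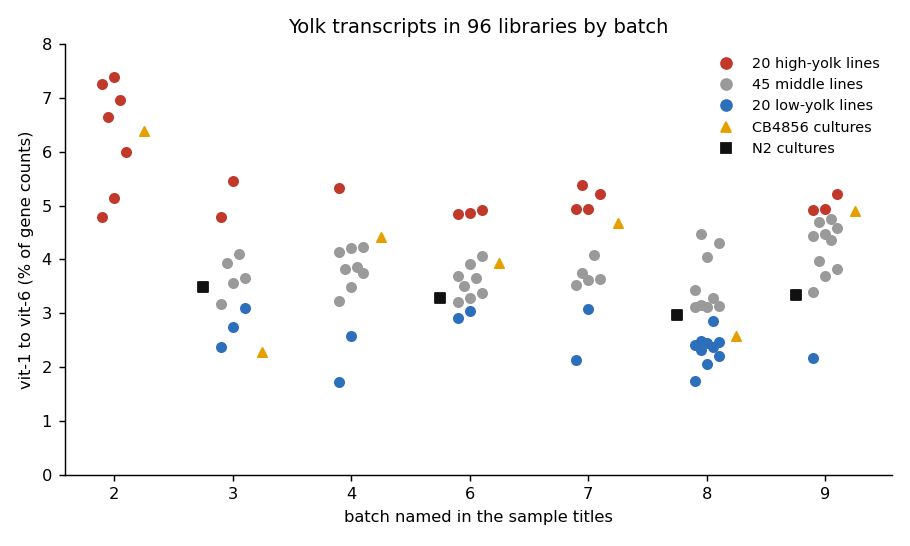
The vertical axis gives the summed counts of vit-1 to vit-6 as a percent of gene counts and the horizontal axis the batch; circles are lines coloured by set, triangles CB4856 cultures and squares N2 cultures. All 7 lines of batch 2 lie at or above 4.79%, and batch 8 holds 10 of the 20 low-yolk lines.

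The ranking was carried by the most counted vitellogenins. vit-2 (WBGene00006926; WBcel235 chromosome X, 5101042 to 5106169) had between 14780 and 24450 CPM in high-yolk lines (median 16863), and between 6027 and 10433 in low-yolk lines (median 7806). vit-6 (WBGene00006930; chromosome IV, 8261157 to 8266459), the one member outside the X chromosome, had between 18045 and 30149 CPM in high-yolk lines (median 21671) and between 7203 and 13433 in low-yolk lines (median 9922). The 2 genes moved together across lines, with a ratio of vit-6 to vit-2 CPM of 1.27 at the median in high-yolk and 1.25 in low-yolk lines, and a range of 1.15 to 1.5 over all 85. vit-5 (X, 3403471 to 3408603) followed the same order, with medians of 5278, 3562 and 2272 CPM in high-yolk, middle and low-yolk lines. The 5 X-linked members together made up between 50.9% and 64.5% of the yolk counts of a line.

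The other members did not all follow the ranking line by line. vit-1 (X, 7727889 to 7733168) had medians of 5499, 3520 and 2030 CPM in high-yolk, middle and low-yolk lines. The 2 lowest values of vit-1 were in middle lines of batch 9, 626 CPM in QX503 and 799 CPM in QX491, and vit-4 was low in the same lines, at 300 and 395 CPM, while their vit-2 was at 16790 and 17090 CPM. vit-4 (X, 3558769 to 3563965) otherwise had medians of 1319 CPM in high-yolk and 745 CPM in low-yolk lines, with overlapping ranges of 956 to 1707 and 286 to 1170. Of the vitellogenin genes, vit-3 (X, 3567355 to 3572549) was the one whose level in the parents stood apart, between 1587 and 2176 CPM in N2 and between 128 and 655 in CB4856. Among the 85 lines, 30 were at or above the lowest N2 library, 40 at or below the highest CB4856 library and 15 between. High-yolk lines were found on both sides, with 9 at the N2 level, 8 at the CB4856 level and 3 between, and low-yolk lines numbered 4, 7 and 9. Some of the X-linked members, such as vit-3, vit-4 and vit-5, are close copies of each other, and reads that map to more than 1 place are not in the counts, so how reads split among them is uncertain. Whether CB4856 alleles lose reads against the N2-based build was not tested.

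**Figure D2:**
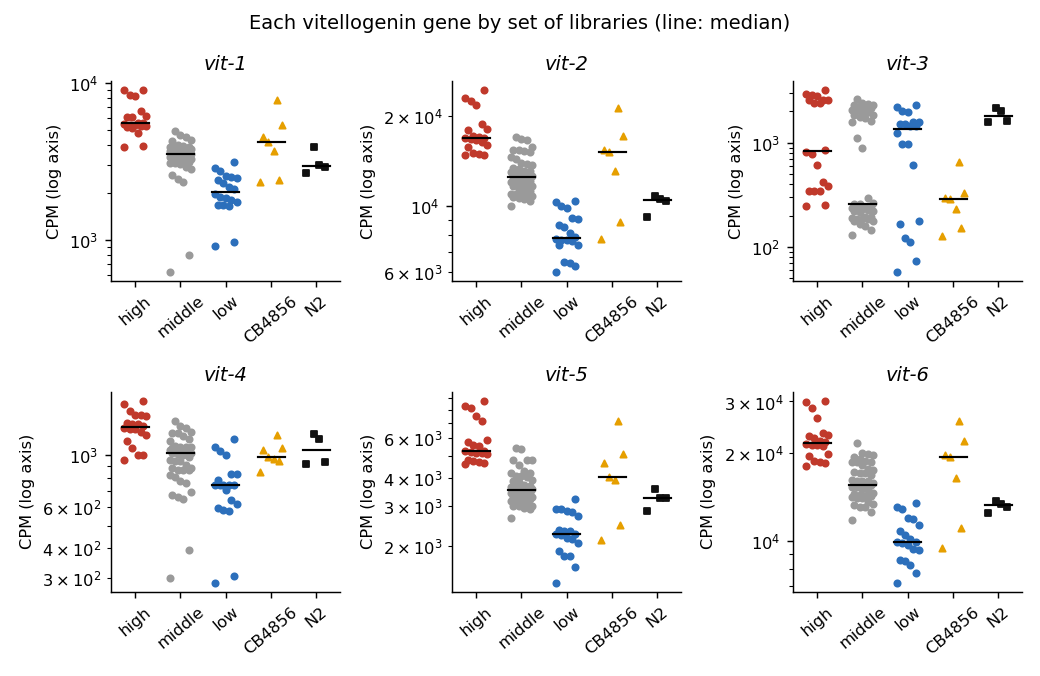
Each panel gives 1 vitellogenin gene in CPM on a log axis, with 1 point per library by set and a line at the median of the set. Medians of the sets of lines are ordered high, middle and low for all of these genes but vit-3, and the ranking used their sum. vit-3 spreads over both parental levels within every set of lines.

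The 20 high-yolk lines were compared with the 20 low-yolk lines at every other gene, with batch as a term, in edgeR's quasi-likelihood test. A gene is called here when its p-value, adjusted over all genes tested, was under 0.05. Of 14583 genes tested, 2484 (17%) were called, 812 (5.57%) higher and 1672 (11.5%) lower in high-yolk lines. At a fold change of at least 2 there were 717 (4.92%), 20 higher (0.137%) and 697 lower (4.78%). The vitellogenin genes were left out of the tested genes, and because the same libraries set the ranking, the calls describe what went with the yolk level and are not taken as a test of it. The excess of lower calls did not hold under every ranking: 1007 genes were higher and 759 lower when lines were ranked within batches, 2083 and 1808 with 10 lines at each end, and 40 and 36 without batch 7. Which lines entered mattered for the count: it was 76 without batch 7, 961 without batch 6, 1335 without batch 9 and 6686 without batch 3, and 1093 with the 23 lines of the batches that hold both extremes. Single lines moved it as well, to 601 without QX571 and 1216 without QX519, low-yolk lines of batches 7 and 9, and to 3772 without QX557 and 4381 without QX548, a low-yolk and a high-yolk line of batch 3. In none of these fits did any of the 2484 genes change sign. Fold changes below are adjusted for batch. CPM medians, ranges and counts of lines above every line of the other set are not. They include the 7 high-yolk lines of batch 2 and the 10 low-yolk lines of batch 8, where yolk level and batch cannot be told apart.

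Enzymes of protein breakdown and lipid metabolism were among the genes higher in high-yolk lines. cpl-1 (WBGene00000776; V, 16592572 to 16595346) encodes a cathepsin L protease that in C. elegans embryos is known for processing yolk. It had between 1247 and 1857 CPM in high-yolk lines (median 1485) and between 682 and 1148 in low-yolk lines (median 945). Every high-yolk line thus lay above every low-yolk line, which held for this gene alone out of 14583 (0.00686%), and the opposite order held for 0. The batch-adjusted log2 fold change was 0.81 ± 0.08 (SE; adjusted p 2.32e-07, edgeR), with differences of 0.78, 0.89, 0.60, 0.88 and 0.54 within batches 3, 4, 6, 7 and 9. cpl-1 was also higher in the middle lines with more yolk, by 0.34 ± 0.17 on the log2 scale per doubling of the yolk level (SE, n = 45), and in the CB4856 cultures, by 0.64 ± 0.11 per doubling (n = 7). Neither slope passed adjustment over all genes (edgeR adjusted p 0.781 and 0.212).

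Some other cathepsins rose with it. cpr-6 (WBGene00000786; X, 6607207 to 6609045), a cathepsin B-like protease of the intestine, had between 464 and 771 CPM in high-yolk lines (median 607) and between 210 and 626 in low-yolk lines (median 353), with 7 of 20 high-yolk lines above every low-yolk line (log2 fold change 0.78 ± 0.11; adjusted p 9.91e-05, edgeR). cpz-1, a cathepsin Z homologue that also acts in moulting, had medians of 275 and 180 CPM (log2 fold change 0.69 ± 0.12). Not all cathepsins moved so. Of 28 tested genes of the cpl, cpr, cpz, asp and ctsa families, 4 were higher and 3 lower. The median log2 fold change was 0.09, against -0.0158 over all genes tested. With 5.57% of all genes called higher and 11.5% lower, counts this small are no result about these families. In the CB4856 cultures the median slope of these families was 0.73 per doubling. The slope of cpl-1 in those cultures, 0.64, was thus not particular to it.

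Fatty acid desaturases formed the second group. Of 14 desaturase, elongase and fatty acid synthesis genes, 5 were higher in high-yolk lines and 0 lower, a median log2 fold change of 0.30, and 5.57% of all genes were higher. Without batch 7, 2 were higher, and without QX571, 3. Other genes of lipid metabolism were not shifted as a set. Of 41 tested acdh, acox and acs genes, 4 were higher and 1 lower (median -0.02), against 5.57% and 11.5% of all genes. fat-2, which makes linoleic acid, had between 442 and 677 CPM in high-yolk lines (median 529) and between 264 and 573 in low-yolk lines (median 374; log2 fold change 0.62 ± 0.10, adjusted p 0.000456, edgeR). fat-4, which makes arachidonic and eicosapentaenoic acid, had between 194 and 258 CPM in high-yolk lines (median 232) and between 135 and 260 in low-yolk lines (median 159; log2 fold change 0.44 ± 0.07, adjusted p 0.000582, edgeR). The ranges of both genes overlapped, and for fat-4 1 low-yolk line lay above all high-yolk lines. fat-1, an omega-3 desaturase, rose by 0.28 ± 0.07.

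The desaturases that make monounsaturated fats were more variable. fat-5 had medians of 14.4 CPM in high-yolk and 8.90 in low-yolk lines and rose by 1.26 ± 0.39 (adjusted p 0.0257, edgeR). fat-7 rose by 1.18 ± 0.42 (adjusted p 0.0473, edgeR), a call that did not hold with DESeq2's size factors or without the batch term, and its slope in the middle lines had the opposite sign, -2.15 per doubling. fat-6, its close copy, was not called, at 0.39 ± 0.20. In batch 9 the list went the other way, with a mean log2 level 0.71 lower in 3 high-yolk lines than in the 1 low-yolk line QX519, where batches 3, 4 and 7 gave 0.60, 0.54 and 0.73 higher.

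Cytochrome P450 genes of the intestine were also among the highest fold changes. cyp-35A2 had between 9.89 and 28.2 CPM in high-yolk lines and between 3.34 and 12.5 in low-yolk lines, with 17 of 20 high-yolk lines above every low-yolk line (log2 fold change 1.12 ± 0.16; adjusted p 0.000102, edgeR). cyp-35C1 rose by 1.08 ± 0.20. Over the whole cyp family, 6 of 52 tested genes were higher and 2 lower, against 5.57% and 11.5% of all genes, and without batch 7 the counts were 2 and 0. The other genes with the highest fold changes at a mean of at least 10 CPM were col-101 (1.38), a collagen, spex-3 (1.25), C32H11.4 (1.22), ZK813.2 (1.12), F46F2.3 (1.09) and ule-1 (1.05). Of these, col-101 had medians of 1127 and 653 CPM, with low-yolk lines down to 62.6 CPM. The calls of spex-3 and F46F2.3 did not hold without the batch term, and exons of ule-1 and fat-5 overlap those of W03F11.5 and twk-42.

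**Figure D3:**
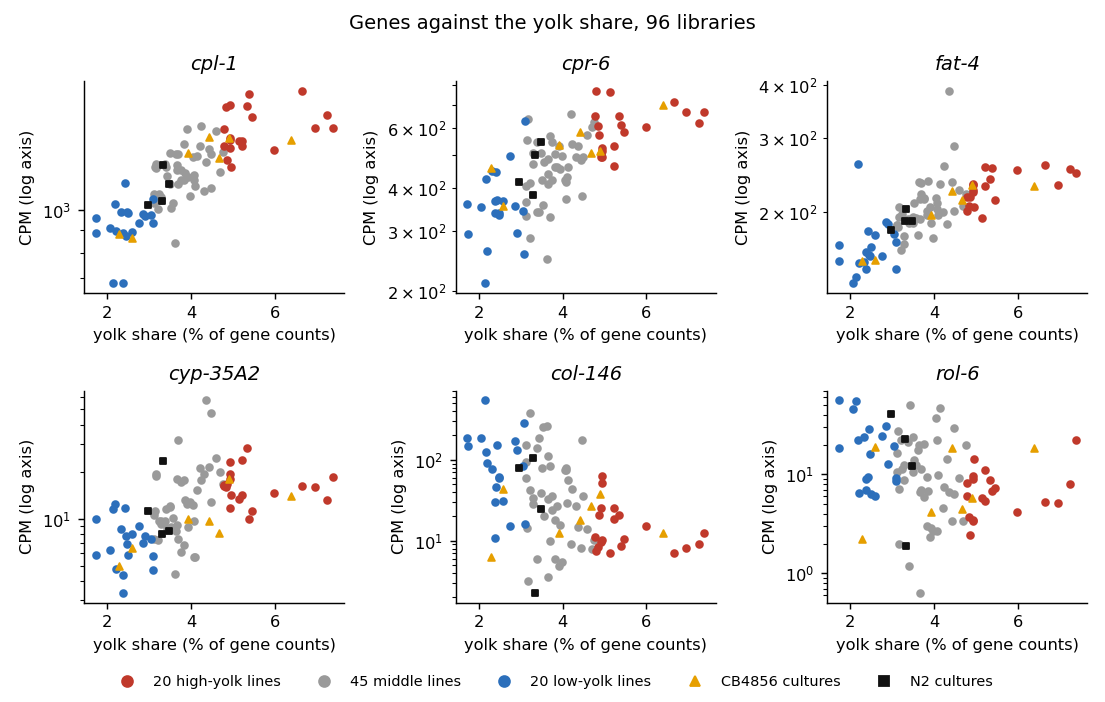
Each panel plots 1 gene in CPM on a log axis against the yolk share in percent of gene counts, with 1 point for each of the 96 libraries coloured by set. cpl-1, cpr-6, fat-4 and cyp-35A2 are higher in the high-yolk lines, and col-146 and rol-6 are lower, with a wide spread among low-yolk and middle lines.

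Genes that act on yolk itself showed small differences. Of 15 regulators of yolk production, lipid loading or uptake, 3 were higher and 2 lower, a median log2 fold change of 0.07. With 5.57% of all genes called higher and 11.5% lower, counts this small are no result about the list. rme-2, the yolk receptor of oocytes, had between 686 and 927 CPM in high-yolk lines (median 791) and between 352 and 978 in low-yolk lines (median 657), with 2 low-yolk lines above all high-yolk lines. It rose by 0.35 ± 0.12 (adjusted p 0.0458, edgeR), a call lost with DESeq2's size factors, and its difference was 1.12 in batch 9 and -0.27 in batch 3. rict-1, the Rictor subunit of a TOR kinase complex, rose by 0.29 ± 0.09, and nhr-49, a nuclear receptor of fat metabolism, by 0.11 ± 0.04. tra-1, the terminal regulator of sex determination, fell by 0.37 ± 0.10 on the log2 scale, as did lin-29, the zinc finger factor of the larval-to-adult switch, by 0.37 ± 0.11. lin-29 had between 7.97 and 15.4 CPM in high-yolk lines and between 12.8 and 26.2 in low-yolk lines. Without adjustment for batch, 14 of 20 low-yolk lines lay above every high-yolk line. Its exons overlap those of hmg-12.

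The transcription factors known to switch on the vit genes were not called. ceh-60 had medians of 10 CPM in high-yolk and 12 in low-yolk lines (log2 fold change -0.23 ± 0.14; adjusted p 0.24, edgeR), unc-62 53.3 and 46.7 CPM (0.07 ± 0.05), and elt-2, the intestinal GATA factor, 13.3 and 10.4 CPM (0.09 ± 0.11). mab-3, which represses vit genes in males, was at 1.66 and 2.05 CPM (-0.31 ± 0.18). lrp-2 (0.08 ± 0.09) and dsc-4 (-0.27 ± 0.17), a lipid transfer protein that loads lipoproteins, were not called either.

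Most tested collagen genes were lower in high-yolk lines. Of 116 tested numbered collagen genes, 75 were lower in high-yolk lines and 5 higher, with a median log2 fold change of -1.23. Over all genes, 11.5% were called lower and 5.57% higher. Among 13 collagens of the annular furrows and body shape (dpy and sqt genes), 10 were lower and 0 higher (median -1.28), and among 7 collagens described as adult or late L4, 6 were lower and 0 higher (median -1.44). These calls leaned on batch 7 and on QX571, a low-yolk line of that batch whose adult collagens lay 2.05, numbered collagens 1.57 and oocyte genes -0.97 from the mean of the 85 lines on the log2 scale. Without batch 7, 8 numbered, 0 furrow and 1 adult collagen were called lower, with medians of -1.07, -1.25 and -1.44. Without QX571 the counts were 41, 0 and 2, and with a ranking within batches 31, 0 and 1. col-146 (V, 9629943 to 9631012) had between 7.04 and 62.8 CPM in high-yolk lines (median 10.9) and between 10.8 and 544 in low-yolk lines (median 88.0; log2 fold change -2.35 ± 0.38, adjusted p 0.000456, edgeR). In 12 of 20 low-yolk lines it lay above every high-yolk line. col-7, an adult collagen, had medians of 6.34 and 45.8 CPM (-1.94 ± 0.34), and rol-6, a collagen of body shape, 6.45 and 17.4 CPM (-1.53 ± 0.39). bli-1, a strut collagen of the adult cuticle whose exons overlap those of dph-2, had medians of 8.27 and 16.3 CPM (-1.23 ± 0.37).

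The adult collagen col-19, the usual marker of the adult hypodermis, did not follow them. It had between 716 and 2608 CPM in high-yolk lines (median 2039) and between 960 and 3044 in low-yolk lines (median 2415), a log2 fold change of 0.13 ± 0.13 (adjusted p 0.466, edgeR). The sign of that value was negative, -0.08, without the batch term. All lines held many col-19 transcripts, with 1692 CPM as the lowest value of the middle lines, though the labels give L4 as the stage. Whether the cultures were past L4 was not tested.

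Moulting genes and the genes that cycle with them were lower as well. Of 28 tested genes of moulting, 12 were lower and 0 higher (median -0.48). Of 29 hedgehog-related genes, 15 were lower and 1 higher (median -0.93), where 11.5% of all genes were lower and 5.57% higher. Without batch 7 both counts of lower genes were 0 (medians -0.43 and -0.67), and without QX571 they were 4 and 2. With a ranking within batches they were 2 and 2, at medians of -0.10 and -0.40. lin-42, the period homologue that peaks once per moult, had between 7.04 and 26.7 CPM in high-yolk lines (median 11.2) and between 9.29 and 64.5 in low-yolk lines (median 20.2), and fell by 1.05 ± 0.27 on the log2 scale. mlt-10, expressed in each moult, fell by 1.04 ± 0.29, and the hedgehog-related grl-21 by 2.44 ± 0.43. nas-37, a protease that sheds the old cuticle, was not called (0.21 ± 0.14). Reads in exons that mlt-10 and nas-37 share with neighbouring genes are not in these counts.

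Of 12 gene families examined, abu, nspb and idpc had the most negative medians. The 11 tested abu genes, named for activation in blocked unfolded protein response, were called lower (median -2.04), against 11.5% of all genes. So were 10 of 10 nspb genes, a nematode-specific peptide family (median -2.20), and 7 of 7 idpc genes (median -2.10). Without batch 7 the calls were 0, 4 and 0, at medians of -1.60, -1.76 and -1.70, and without QX571 they were 9, 10 and 7. The 10 lowest fold changes at a mean of at least 10 CPM were those of grl-21 and col-146, of abu-15 (-2.30), col-137 (-2.21), ctsa-4.2 (-2.21), nspb-6 (-2.17), Y48G8AL.12 (-2.16), col-161 (-2.15), abu-10 (-2.15) and idpc-3 (-2.11). These families hold close copies, so counts of single members are uncertain. ctsa-4.2 stood apart between the parents, at 3.54 to 9.6 CPM in CB4856 and 34.6 to 111 in N2. Its high minus low log2 differences were 0.09, -3.50, -0.22, -3.82 and -3.93 in batches 3, 4, 6, 7 and 9. The part of the parental difference in its fold change was not tested. Of the 20 genes of lin-28, lin-14 and other stage timing, 1 was higher and 2, lin-42 and lin-29, were lower. These counts were near the shares of all genes, 5.57% higher and 11.5% lower, and are no result about the list. lin-28 rose by 0.14 ± 0.05, with medians of 33.5 CPM in both sets, a call lost without the batch term, and lin-14 was not called (-0.04 ± 0.14). The labels give a fixed time of collection and L4 as the stage, so the rate of development of a line and its level at a given point of development cannot be told apart. In RNA of whole animals, fewer cells of a type and less RNA per cell cannot be told apart either.

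**Figure D4:**
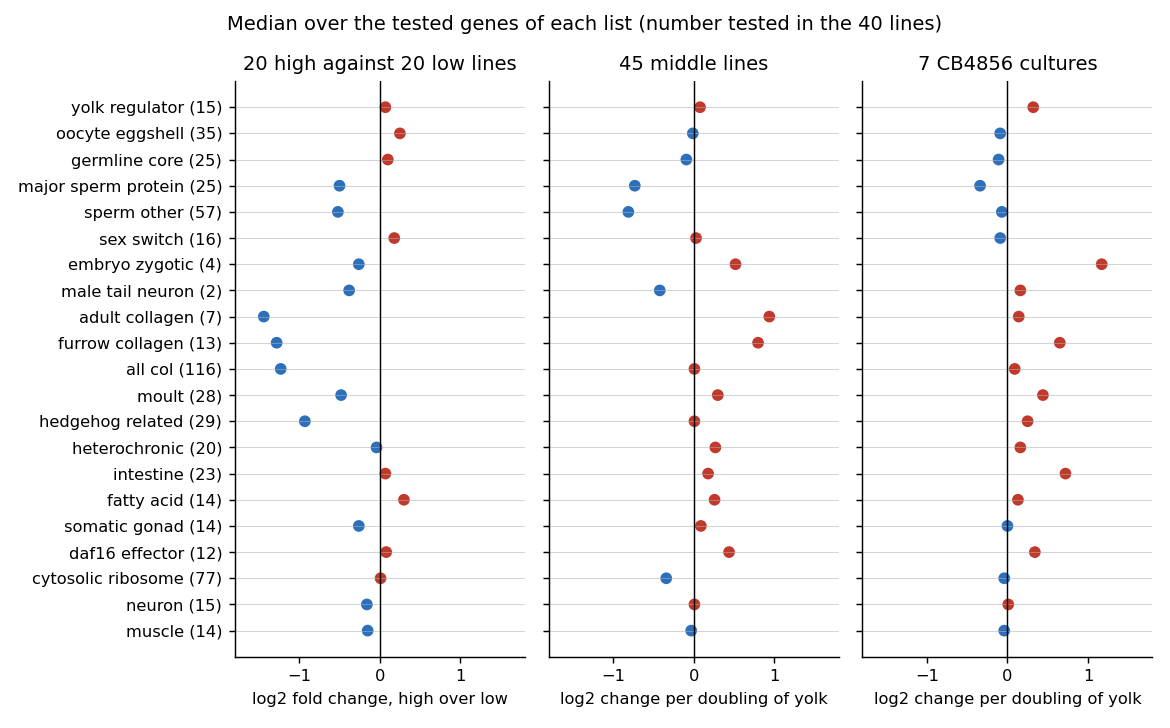
Each point is the median over the tested genes of 1 list; the left panel gives the log2 fold change of high-yolk over low-yolk lines, and the other panels the log2 change per doubling of the yolk level in the 45 middle lines and the 7 CB4856 cultures. Collagen and moult lists lie below 0 on the left and at or above 0 in the other panels, and both sperm lists lie below 0 in all of them.

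The sperm and oocyte lists had medians of opposite sign between the extremes, with few single genes called. Of 25 tested major sperm protein genes, 3 were lower and 0 higher (median -0.50), and of 57 other sperm genes 6 were lower and 0 higher (median -0.52). Against 11.5% of all genes called lower, neither count is a result about sperm genes. msp-55 had medians of 24.9 CPM in high-yolk and 61.8 in low-yolk lines (-0.81 ± 0.29; adjusted p 0.0499, edgeR), while msp-142 at 28 and 51.6 CPM (-0.60 ± 0.25) and gsp-3, a sperm phosphatase, at 25.4 and 47.4 CPM (-0.50 ± 0.24) were not called. Major sperm protein genes are close copies of each other, so single members are uncertain. fog-3, which sets the sperm fate, was at 1.55 and 1.56 CPM (0.26 ± 0.25).

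Among 35 genes listed for oocytes and the eggshell, 6 were higher and 0 lower (median 0.25), against 5.57% of all genes called higher. Without batch 7, or without QX571 alone, 1 of them was called, with medians of 0.17 and 0.15. perm-4 and perm-2, of the permeability barrier of the eggshell, rose by 0.47 ± 0.13 and 0.39 ± 0.13, and egg-5 and egg-4, regulators of egg activation, by 0.40 ± 0.11 and 0.27 ± 0.08. The oocyte factors oma-1 (0.13 ± 0.10), puf-5 (0.31 ± 0.12), cbd-1 (0.29 ± 0.12) and egg-1 (0.25 ± 0.11) were not called, nor was lin-41 (0.20 ± 0.16). All 35 listed genes had a positive fold change, from 0.13 to 0.64. The highest was that of cbl-1 (0.64 ± 0.16), 1 of the 6 called genes. The place of cbl-1 among oocyte and eggshell genes is uncertain. Medians differed less than the spread among low-yolk lines, where cbd-1 ran from 1128 to 3142 CPM against 2280 to 2982 in high-yolk lines. Of 25 genes of the germ granules and meiosis 1 was higher and 0 lower (median 0.10).

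Within batches the sperm and oocyte lists did not keep 1 direction. The mean log2 level of the other sperm genes was lower in high-yolk lines by 1.16, 0.52, 0.64 and 0.84 in batches 4, 6, 7 and 9, and higher by 0.45 in batch 3, with the extremes apart in each. Oocyte genes were 0.53 and 0.75 higher in batches 7 and 9, and 0.24 lower in batch 3. There the 3 low-yolk lines QX555, QX557 and QX560 had high oocyte levels, 0.26, 0.34 and 0.32 above the mean of the 85 lines. The collagen and moult lists had lower means in the high-yolk lines of all 5 batches. The extremes overlapped for moult genes in batches 3, 4 and 7, for furrow collagens in batches 4 and 7, and for adult collagens in batch 3. The differences of these lists were smallest in batch 3, at -0.23 for adult collagens. They were widest in batch 9, at -2.10 for adult collagens, where a single low-yolk line was available.

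**Figure D5:**
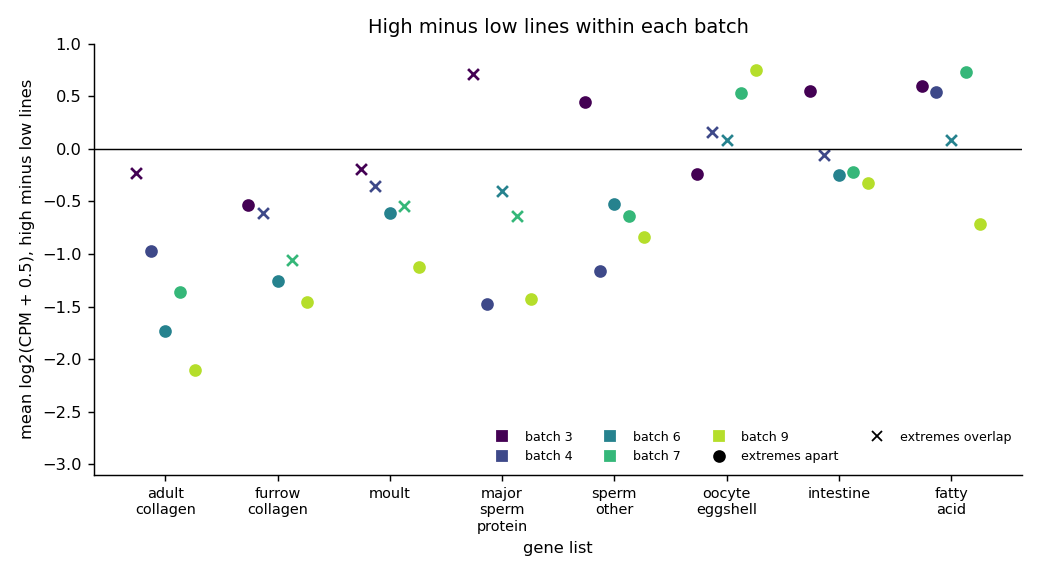
Each point is the mean log2(CPM + 0.5) of a list in the high-yolk lines of 1 batch minus that in its low-yolk lines; circles mark batches in which the extremes do not overlap and crosses those in which they do. Adult collagens run from -0.23 in batch 3 to -2.10 in batch 9, and the other sperm genes are at 0.45 in batch 3 and below 0 in the other 4 batches.

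Markers of other cells were examined in the same lines. The 16 genes listed as embryonic summed to a median of 15.5 and at most 26.3 CPM in high-yolk lines. In low-yolk lines they summed to a median of 16.8 and at most 47.1 CPM. elt-1 alone had medians of 8.87 CPM in high-yolk and 8.92 in low-yolk lines, and only 4 of the 16 genes could be tested. The sum is therefore not read as a level of embryos in the uterus. end-1 and pes-10 were near 0, at medians of 0.0871 and 0.360 CPM in high-yolk lines. The 6 male markers summed to 1.99 to 4.23 CPM in high-yolk and 2.99 to 7.48 in low-yolk lines, with pkd-2 at medians of 0.0849 and 0.0853 CPM. The 15 pan-neuronal genes summed to 426 to 542 CPM in high-yolk and 444 to 748 in low-yolk lines. Of these, 5 were lower and 0 higher (median -0.16), against 11.5% and 5.57% of all genes, rab-3 falling by 0.40 ± 0.10. The 14 muscle genes had 0 calls (median -0.15) and summed to 8073 to 16847 CPM against 11645 to 22591. The part of these markers in the differences above was not tested. Intestinal genes, of the tissue that makes yolk, were not shifted as a list, with 1 of 23 higher, 2 lower and a median of 0.07, near the shares of all genes. Their sums ran from 7303 to 14786 CPM in high-yolk and from 5466 to 15550 in low-yolk lines.

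Ribosomal protein genes and stress genes had 0 calls in edgeR, with 0 of 77 and 0 of 12 (medians 0.01 and 0.08). Of 14 somatic gonad genes, 1 was higher and 5 lower (median -0.26), including the fate regulator fkh-6, which fell by 0.96 ± 0.18, and lin-11, of the uterus and vulva, which fell by 0.66 ± 0.17. Of 16 genes of the sperm to oocyte switch, 4 were higher and 1 lower. For all lists here the shares of all genes were 5.57% higher and 11.5% lower. sod-3, a superoxide dismutase, was not called (0.33 ± 0.26).

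Called genes differed in number by chromosome. On X, 50 of 2052 tested genes (2.44%) were higher and 311 (15.2%) lower in high-yolk lines. On the autosomes between 4.15% and 7.64% were higher and between 9.01% and 12.2% lower. The median log2 fold change was -0.08 on X and ran from -0.06 on V to 0.04 on III.

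The 45 middle lines, which the ranking did not use as extremes, were examined for the same relation in other animals. The ranking had cut their yolk level to the span from 3.12% to 4.76%, so their slopes rest on a narrow range and a slope that was not called does not show that a gene was unrelated to yolk. With batch as a term, 0 of 15848 genes were called by their slope on the yolk level in edgeR, while 1014 (6.40%) had an unadjusted p-value under 0.05 and DESeq2 called 14. In the 7 CB4856 cultures 0 of 14755 genes were called in edgeR, 1477 (10%) had an unadjusted p-value under 0.05, and DESeq2 called 336. Without the batch 2 culture edgeR called 62 genes, all higher with more yolk, and without the batch 9 culture it called 1. Each CB4856 culture was its own batch, so batch and yolk level cannot be told apart there.

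Genes called between the extremes kept their direction in part. Of the 812 genes higher in high-yolk lines, 74.8% had a positive slope in the middle lines, against 50.8% of all genes, and 44.5% in the CB4856 cultures, against 51.9%. Of the 1672 lower genes, 66.4% had a negative slope in the middle lines, against 49.2% of all genes, and 39.6% in the CB4856 cultures, against 48.1%. Only the middle lines thus had more genes of the same sign than the background. The collagen and moult lists did not have negative medians in either. Furrow collagens had median slopes of 0.80 per doubling in the middle lines and 0.65 in CB4856, adult collagens 0.94 and 0.14, and moult genes 0.30 and 0.44. No gene of these 3 lists had an adjusted p under 0.05 there in edgeR, and at an unadjusted p under 0.05 there were 0 in the middle lines and 2, both moult genes, in CB4856.

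The sperm lists had negative medians in both, -0.73 and -0.81 in the middle lines and -0.34 and -0.07 in CB4856, and of 28 major sperm protein genes 3 had a positive slope in the middle lines. Oocyte genes had medians of -0.01 and -0.09. The intestinal list had a median slope of 0.72 in CB4856, with 22 of 23 genes positive and 13 at an unadjusted p under 0.05, and of 0.18 in the middle lines, with 19 of 24 positive. Ribosomal protein genes had negative slopes in the middle lines for all 77 genes (median -0.34), 62 of them at an unadjusted p under 0.05, but a median of -0.04 in CB4856 and 0.01 between the extremes. Genes of 1 list share libraries and are not independent of each other.

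A smaller set of 61 genes was called between the extremes whichever batch was left out, 26 higher and 35 lower. It was picked after the values were seen. The 26 higher genes included cpl-1, cpr-6, cpz-1, fat-2, fat-4, cyp-35A2, cyp-35C1, ugt-22, a glucuronosyl transferase, ret-1, the reticulon, and pgp-2, a transporter of the gut granules. In libraries that took no part in the choice, 23 of the 26 had a positive slope in the middle lines (median 0.28), 3 of these at an unadjusted p under 0.05. In the CB4856 cultures 25 of 26 did (median 0.49), 16 of these at an unadjusted p under 0.05. Over all genes, 50.8% had a positive slope in the middle lines and 51.9% in CB4856. At an unadjusted p under 0.05 the shares were 3.83% and 5.87%. The intestinal list, not shifted between the extremes, had 22 of 23 positive slopes in CB4856, and 13 genes at an unadjusted p under 0.05. A positive slope there was thus not particular to the 26 genes. fat-4 had 231, 153, 225, 197, 214, 154 and 232 CPM in the CB4856 cultures of batches 2, 3, 4, 6, 7, 8 and 9. Its level was lowest in batches 3 and 8, the cultures with the least yolk, and its slope was 0.53 ± 0.07 per doubling (adjusted p 0.13, edgeR). pgp-2 had 53.4, 30.4, 54.8, 35.3, 41.8, 29.2 and 79 CPM in the same order, a slope of 0.85 ± 0.24. cyp-35A2 had a slope of 1.10 ± 0.25 in CB4856 and 0.70 ± 0.59 in the middle lines.

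The 35 lower genes held 8 numbered collagens, 4 fipr and 4 nspb genes. Of these 35, 25 had a negative slope in the middle lines (median -0.21) and 16 in the CB4856 cultures, where the median was 0.10. Over all genes 49.2% and 48.1% had a negative slope, so in CB4856 the share was near that of all genes. col-146 had slopes of 0.01 ± 1.23 in the middle lines and -0.02 ± 0.74 in CB4856, and col-13 of -0.15 ± 0.96 and -0.13 ± 0.57. The wide errors leave both directions within range. ttr-14, a transthyretin-related gene, fell by 1.56 ± 0.26 between the extremes and had slopes of -0.39 and -0.22.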

How the data were processed

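Each file holds raw gene read counts, deposited by the authors without normalisation in the layout of STAR's gene counting. Per the submitters' processing notes, FastQC, STAR 2.73a and DESeq2 were used with build WBcel235. The unstranded column was used, in which reads on overlapping genes or at several places are not counted. Gene counts summed to between 22069702 and 24001627 per library, over 46904 gene identifiers, of which 46817 are in the Ensembl annotation of WBcel235. Reads that name no gene (7.43% on average) stayed out.

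Lines were ranked by the summed CPM of vit-1 to vit-6, which stayed in library sizes and out of the tested genes. Tests across genes used edgeR 4.0.16 (R 4.3.3, filterByExpr, TMM, robust quasi-likelihood test, two-sided, Benjamini-Hochberg, threshold 0.05). They were run first on simulated counts with 1 spread setting for all genes and no batch effect. That run therefore does not cover the shifts between batches and lines seen here. Standard errors come from the fold change and its statistic. Slopes are per doubling of the summed yolk CPM, with batch as a term in the middle lines and none in CB4856. List levels are means of log2(CPM + 0.5) centred on the 85 lines. Since each line has 1 library, p-values measure the spread between libraries. With 1 culture per line, differences between lines and between cultures both enter the errors and cannot be told apart. In CB4856 the errors rest on the spread between cultures of 1 strain.

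The members and gene lists were chosen with earlier results of these data known. The rule for named genes asked for calls in the extremes and the middle lines, at least 10 CPM on average, the 10 largest and 10 smallest fold changes and up to 4 per list, beside genes listed by name. As 0 genes passed both, calls between the extremes alone were used, a choice made after seeing the data, as was naming genes called whichever batch was left out. A motif search in vit promoters was not run, and no genome sequence was used here. Alternatives were DESeq2 1.42.0 and its size factors (RLE), other filters, library sizes, rankings, no batch term, and leaving out batches, cultures and lines.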

Additional observations from a re-analysis of the deposited data

Results flagged for a closer look

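A sample stood far from the others of its group in 2 of 44 checks of yolk levels and gene lists, and chance flags about 1 in 20 groups. vit-3 was at 655 CPM in the CB4856 culture of batch 2, where the other 6 cultures lay lower, and the desaturase and elongase list was at -0.61 in the N2 culture of batch 9, the lowest of 4.

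In some lists every high-yolk line lay above every low-yolk line in 1 batch and below in another, among the 3 batches with at least 2 lines of each extreme. These differences between batches were not tested. The yolk regulators differed by 0.24 (high minus low, mean log2 level) in batch 3, -0.20 in batch 6 and -0.17 in batch 7. Oocyte and eggshell genes differed by -0.24 in batch 3 and 0.53 in batch 7, sperm genes other than major sperm proteins by 0.45 in batch 3, -0.52 in batch 6 and -0.64 in batch 7, and genes of the sperm to oocyte switch by -0.11 in batch 3 and 0.20 in batch 7. Intestinal genes differed by 0.55 in batch 3, -0.25 in batch 6 and -0.22 in batch 7.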

How the results depend on the processing

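The count of 2484 genes between the extremes stayed within 1.5 times under DESeq2's size factors, DESeq2, other filters, library sizes without vit genes, a ranking on vit-6 alone, a ranking within batches (1766, with 1007 higher and 759 lower, 951 of them among the 2484) and without batch 2, 4 or 8. It was 6933 without the batch term, 6686, 961, 76 and 1335 without batch 3, 6, 7 or 9, 3891 with 10 lines at each end (2083 higher), 4134 with 30, 3883 ranked on vit-2 alone and, an alternative added after seeing the data, 1093 in the batches that hold both extremes. Leaving out 1 line at a time gave 601 to 4381, also added after seeing the data. The cause of these shifts was not tested. In the middle lines 0 genes became 1247 without the batch term and 14 with DESeq2, and in CB4856 0 became 336 with DESeq2 and 1 with a mean of at least 1 log2 CPM, and between 0 and 62 with 1 culture left out.

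Adult collagens had a median of -0.69, all numbered collagens of -0.68 and moult genes of -0.10 when ranked within batches. The intestinal median turned to -0.08 without batch 3 and ranged from -0.01 to 0.10 with 1 line left out. The stage timing median turned to 0.04, 0.05 and 0.02 without the batch term, ranked within batches and without batch 7, the stress genes to -0.01 without batch 3 and to between -0.02 and 0.14 with 1 line left out, and the ribosomal genes to -0.12 and -0.10 without the batch term and ranked within batches. Among named genes, signs turned without the batch term for col-19 (-0.08), dsc-4 (0.10), lin-14 (0.01), nas-37 (-0.09) and sod-3 (-0.16), none of them called, and lin-14 was at 0.00 with DESeq2's size factors. At this depth single genes of low level, such as end-1 and pkd-2, could not be tested. No paired analysis was possible because the labels give no replicate numbers (those used here only follow accession order) and each line has 1 library; batch, which libraries do share, is already a term of the fit.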
